A study of Rattus norvegicus with 12 samples.

Results

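The genes described here encode feedback inhibitors of the ERK pathway (extracellular signal-regulated kinase, a MAP kinase) and ETS transcription factors of the Pea3 group. They are the Sprouty genes Spry1, Spry2 and Spry4, the Spred genes Spred1 and Spred2, the dual-specificity phosphatase genes Dusp4, Dusp5 and Dusp6, and Etv4 and Etv5. They were taken by symbol from the deposited transcript tables, 10 of 32883 genes. All 10 were among the 13793 genes tested, which reached 1 rescaled FPKM or more in 2 or more libraries. FPKM counts fragments relative to transcript length and library size, so levels of different genes can be set side by side per length. RNA was sequenced from cardiomyocytes, the contracting cells of the heart, of Sprague-Dawley rats 1 to 3 days old, after removal of ribosomal RNA. The 6 groups held 2 libraries each: PE (phenylephrine, an alpha-1 adrenergic agonist, 10 µM) with JQ1 (1 µM), ET-1 (endothelin-1, 100 nM) with JQ1, vehicle (acetic acid) with JQ1, PE with DMSO, ET-1 with DMSO, and vehicle with DMSO. JQ1 blocks the bromodomains of the BET proteins, which recruit elongation factors to acetylated chromatin, and DMSO is its solvent. Treatment lasted 24 h. All cultures had earlier been kept in 7% serum and in AraC (10 µM, which stops dividing cells), and both were withdrawn before treatment began. Whether the libraries numbered 1 and 2 came from different cultures or litters is not stated in the labels, and p-values therefore reflect the spread between these libraries alone, which may be technical.

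ERK is the last kinase of the Ras, Raf and MEK cascade, and receptors coupled to Gq proteins, such as those for endothelin and alpha-1 agonists, activate it in cardiomyocytes during hypertrophic growth. Active ERK raises the transcription of its own inhibitors. Sprouty and Spred proteins act upstream, at the level of Ras and Raf, while the phosphatases Dusp4, Dusp5 and Dusp6 remove the activating phosphates from ERK itself. Etv4 and Etv5 are transcription factors that are widely read as outputs of growth factor and ERK signalling. Capicua (CIC) is a repressor that holds several of these genes down until ERK signalling relieves it.

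Promoter windows running from 250 bases before to 50 after the start site were matched by symbol in RefSeq, on build GRCr8, for 8 of the 10 genes. Spry2 had a pair of windows, which made 9 in all, and Dusp4 and Etv4 are named only. The deposited tables use build rn6, so the positions of the windows do not carry over to them. For Spry4 the strand differs as well, minus in GRCr8 and plus in rn6. Both strands were searched for 5 motifs: the CArG box of serum response factor (by name), the ETS core CCGGAA, the AP-1 site TGANTCA, the cyclic AMP response element TGACGTCA, and the CIC octamer (TGAATGAA, TGAATGGA, TCAATGAA or TCAATGGA). Of 33469 RefSeq windows of this length, 1.64% held a CArG box, 15% the ETS core, 7.33% the AP-1 site, 1.83% the cyclic AMP response element and 4.26% the CIC octamer. The windows below are shown because Spry1 and Spry4 had lower levels with JQ1 while differing in motif content, and because Dusp5 and Dusp6, a pair of ERK phosphatases, held different motifs. Capitals mark the matched motifs.
Spry1 (chr2:122485097-122485396, plus strand): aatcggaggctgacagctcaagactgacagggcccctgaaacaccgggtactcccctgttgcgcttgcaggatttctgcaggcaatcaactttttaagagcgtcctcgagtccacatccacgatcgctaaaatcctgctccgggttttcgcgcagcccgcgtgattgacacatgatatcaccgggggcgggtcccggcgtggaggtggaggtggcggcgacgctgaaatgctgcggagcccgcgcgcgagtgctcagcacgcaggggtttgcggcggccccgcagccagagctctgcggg
Spry4 (chr18:30702497-30702796, minus strand): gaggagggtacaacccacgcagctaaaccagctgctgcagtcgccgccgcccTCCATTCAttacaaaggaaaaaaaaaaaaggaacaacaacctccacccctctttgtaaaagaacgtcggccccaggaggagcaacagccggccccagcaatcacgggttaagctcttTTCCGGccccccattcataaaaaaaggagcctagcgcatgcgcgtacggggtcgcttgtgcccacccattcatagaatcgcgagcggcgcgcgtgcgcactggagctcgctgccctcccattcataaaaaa
Dusp5 (chr1:262543524-262543823, plus strand): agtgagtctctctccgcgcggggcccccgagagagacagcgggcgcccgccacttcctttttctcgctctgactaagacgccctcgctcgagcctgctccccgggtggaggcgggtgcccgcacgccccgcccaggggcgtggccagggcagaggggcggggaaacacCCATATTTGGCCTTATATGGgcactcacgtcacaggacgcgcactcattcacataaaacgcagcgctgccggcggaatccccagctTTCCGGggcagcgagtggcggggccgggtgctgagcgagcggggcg
Dusp6 (chr7:35979354-35979653, plus strand): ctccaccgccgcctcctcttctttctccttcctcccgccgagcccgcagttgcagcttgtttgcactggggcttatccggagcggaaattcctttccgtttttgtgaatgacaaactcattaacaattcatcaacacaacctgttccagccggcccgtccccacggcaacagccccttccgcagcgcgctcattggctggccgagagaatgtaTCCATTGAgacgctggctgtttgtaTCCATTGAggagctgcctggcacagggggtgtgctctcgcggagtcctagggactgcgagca
The Dusp5 window held 2 abutting CArG boxes, CCATATTTGG and CCTTATATGG, whose first bases lay 82 and 72 bases before the start site, and 1 ETS core, read as TTCCGG, just after it. In Dusp6 there were 2 CIC octamers, both read as TCCATTGA on the printed strand. Spry4 held 1 CIC octamer, read as TCCATTCA, and 1 ETS core, read as TTCCGG. The window further upstream of Spry2 held 1 ETS core. No match was found in the Spry1 window, in the other Spry2 window or in those of Spred1, Spred2 and Etv5, and no AP-1 site or cyclic AMP response element was found in any of the 9 windows. No matched motif overlapped another. A match is a description of the letters, not a bound site.

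Coverage came to 2.341 to 2.965 Gb (gigabases) per library. If reads are taken as 50 bases long, the commonest low total in all 12 libraries, the least covered gene was Etv4, at 16 to 1425 reads, followed by Spred2 at 83 to 280 and Spry4 at 105 to 1034. All 7 cardiomyocyte markers were tested and summed to 10910 to 24870 rescaled FPKM. This sum was higher in replicate 2 in each group, and higher with JQ1 than with DMSO in each treatment and replicate. Under DMSO it was higher with each agonist than with vehicle in both replicates. All 7 fibroblast markers were tested too, and in each group their sum was higher in replicate 1. In replicates 1 and 2 it was 633.1 and 120.6 with PE and JQ1, 504.9 and 109.1 with ET-1 and JQ1, 658.4 and 146.7 with vehicle and JQ1, 953.1 and 216.9 with PE, 873.2 and 211.4 with ET-1, and 1331 and 323.7 with vehicle alone. The 6 markers of smooth muscle and pericytes, all tested, summed in replicates 1 and 2 to 676.8 and 384.5 with PE and JQ1, 791.5 and 592.1 with ET-1 and JQ1, 730.3 and 387 with vehicle and JQ1, 799.5 and 686.5 with PE, 859 and 773.8 with ET-1, and 710.9 and 424.8 with vehicle alone. Endothelial markers (3 of 6 tested) summed to 0.2868 to 2.285 with JQ1, where Vwf was listed at 0, and 1.664 to 4.732 with DMSO, and macrophage markers (3 of 6 tested) to 0.3589 to 3.169 with JQ1 and 2.023 to 7.721 with DMSO. In bulk cultures fewer cells of a type and less RNA per cell cannot be told apart. Of the 10 ERK pathway genes, 7 (Spry4, Spred1, Spred2, Dusp4, Dusp6, Etv4 and Etv5) were higher in replicate 1 in all 6 groups, against 18.6% of all tested genes. Under DMSO the sums of fibroblast, endothelial and macrophage markers were lower with the agonists than with vehicle in each replicate, while those of smooth muscle and pericytes were higher, in the direction of the rises described next. Of these Cspg4 rose with PE and ET-1 (1.16 and 1.06 log2, limma adjusted p = 0.011 and 0.022) and Cnn1 with PE (1.84, 0.039). Cnn1 with ET-1 (1.65), Acta2 (0.35 and 0.26 with PE and ET-1) and Tagln (0.20 and 0.50) were higher without passing. Myh11 (-0.37 and -0.31) and Rgs5 (-0.04 and -0.45) were lower without passing. With the replicate number as a block, described below, Myh11 was lower with PE (limma adjusted p = 0.03) and Cnn1 higher with ET-1 (0.0018). With JQ1 the sums of fibroblast, endothelial and macrophage markers were lower than with DMSO in each treatment and replicate, and 3, 3 and 2 of the 6 smooth muscle and pericyte markers fell in PE, ET-1 and vehicle. Cspg4 (-2.00, -1.75 and -1.21) and Cnn1 (-1.71, -1.56 and -1.58) fell in all 3, and Acta2 in PE and ET-1. Acta2 in vehicle (-0.64), Myh11 (-1.25, -1.14 and -1.33) and Rgs5 (-0.87, -0.38 and -0.79) were lower without passing. Tagln (-0.14, 0.06 and 0.22), the marker with the highest level of the 6, did not pass in either fit. With the block 5 of the 6 fell in each treatment. Of the cardiomyocyte markers Tnnt2 rose with JQ1 in PE, ET-1 and vehicle (1.09, 0.98 and 1.08). Ryr2 (-0.67 and -0.74) and Tnni3 (-1.32 and -1.71) fell in PE and ET-1, and in vehicle only with the block. The part of all these cell types in the agonist results, the JQ1 results and the replicate differences was not tested.

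**Figure D1:**
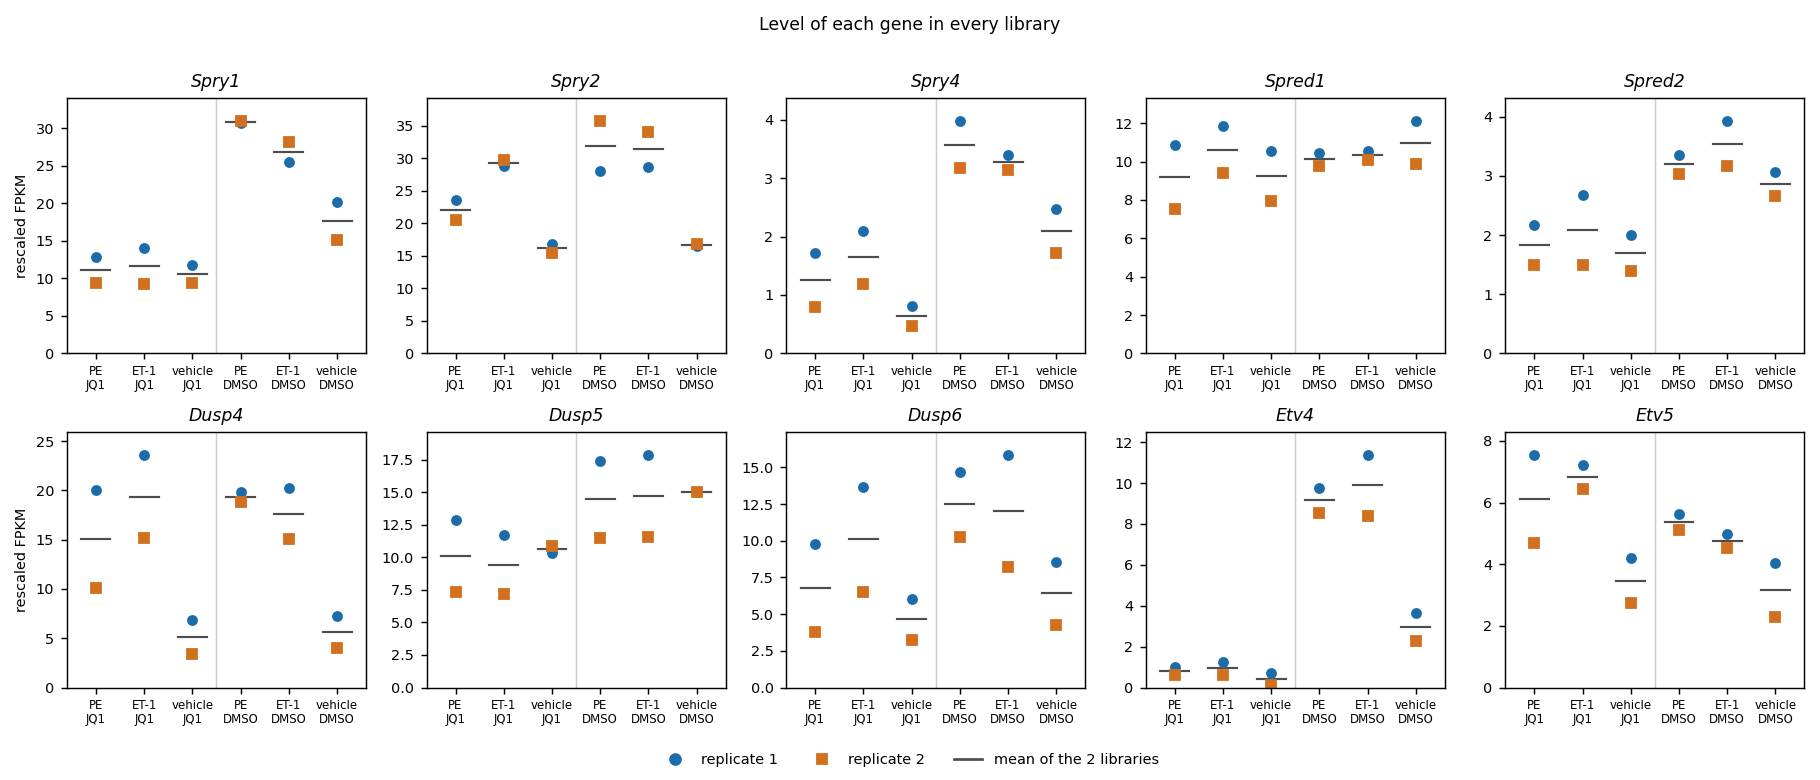
Rescaled FPKM (y axis, linear, from 0, scale set per gene) of each gene in all 12 libraries, by group (x axis), with circles for replicate 1, squares for replicate 2 and lines for the mean of 2. Etv4 was at most 1.244 in the 6 JQ1 libraries and at least 2.289 in the 6 DMSO libraries, while Dusp4 separated agonist from vehicle libraries with and without JQ1.

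Without JQ1, the agonists raised few of these genes past the threshold over all genes. The threshold was an adjusted p under 0.05 in limma, with Benjamini-Hochberg adjustment over the 13793 tested genes. With PE, Spry2 and Etv4 rose, 2 of 10 genes, against 2.89% of all genes tested that rose. With ET-1 only Spry2 rose by this test, 1 of 10 genes, against 1.31% of all genes. The median log2 difference of the 10 genes was 0.76 with PE and 0.58 with ET-1, beside -0.01 and -0.02 over all genes. The groups did not overlap for 7 genes in each comparison. With PE these were Spry1, Spry2, Spry4, Dusp4, Dusp6, Etv4 and Etv5, all higher, where 27% of all genes were higher without overlap. With ET-1 Spred2 stood in place of Dusp6, and 25.7% of all genes were higher without overlap. The 2 comparisons share their vehicle libraries.

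Libraries with the same replicate number deviated together, so the fit was repeated with the replicate number as a block, and its calls for the 10 genes are given wherever they differ. With the block 7 of the 10 genes rose with PE (Spry1, Spry2, Spry4, Dusp4, Dusp6, Etv4 and Etv5), where 11.8% of all genes rose, and 6 with ET-1 (the same without Etv5), where 8.89% of all genes rose. None of the 10 fell with either agonist in either fit, where 3.18% of all genes fell with PE and 1.57% with ET-1, and 12.2% and 9.5% with the block. Spred1, Spred2 and Dusp5 did not pass in either fit.

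PE and ET-1 were then set against each other under DMSO. None of the 10 genes differed in either fit, and 0 had an unadjusted p under 0.05. Over all genes limma called 0.00725% with and without the block, which was 1 gene, and 206 genes had an unadjusted p under 0.05. The differences ran from -0.13 for Spred2 to 0.20 for Spry1 on the log2 scale. The 95% confidence intervals reached from -0.29 to 0.32 for Spry2, the narrowest, and from -1.21 to 1.41 for Dusp6, the widest, so differences of those sizes were not detectable here.

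JQ1 lowered Etv4 in every treatment, Spry1 in PE and ET-1, Spry4 in PE and vehicle, and Spry2 in PE. In PE-treated cells 4 of the 10 genes fell, where 19% of all genes fell. In ET-1-treated cells 2 fell (Spry1 and Etv4), where 19.6% of all genes fell, and in vehicle-treated cells 2 fell (Spry4 and Etv4), where 16.7% of all genes fell. None of the 10 rose, where 17.5% of all genes rose in PE, 17.9% in ET-1 and 15.3% in vehicle. The shares that fell in ET-1 and in vehicle are near those of all genes and are no result about the 10 genes as a set. The median log2 difference was -0.60 in PE, -0.44 in ET-1 and -0.45 in vehicle, beside 0.01, 0.03 and 0.01 over all genes. With the replicate block 6 fell in PE (Spred2 and Dusp6 in addition), where 29.7% of all genes fell. In ET-1 5 fell with the block (Spry1, Spry4, Spred2, Dusp5 and Etv4) and Etv5 rose, where 29.8% of all genes fell and 27.1% rose. In vehicle 4 fell with the block (Spry1, Spry4, Spred2 and Etv4), where 27.9% of all genes fell.

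**Figure D2:**
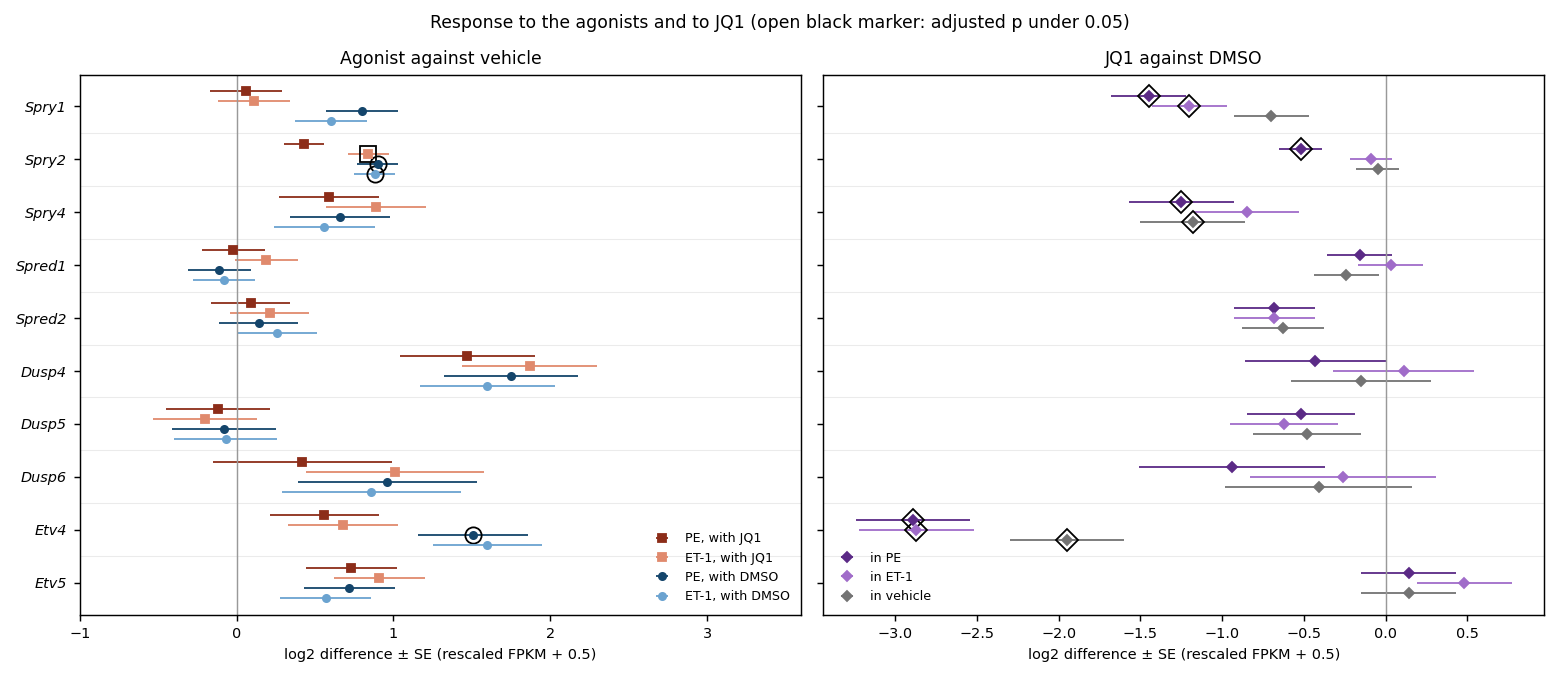
Log2 difference ± SE on the log2(rescaled FPKM + 0.5) scale (x axis) for each gene (y axis), agonist against vehicle on the left and JQ1 against DMSO on the right, each from 2 against 2 libraries, with black outlines where the adjusted p was under 0.05 without the block. Etv4 lies farthest to the left with JQ1, between -1.95 and -2.89, and Dusp4 farthest to the right with the agonists, except that with ET-1 under DMSO Dusp4 and Etv4 both stand at 1.60.

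Under JQ1 the agonist response was tested again. With ET-1, Spry2 rose and no other of the 10 did, where 0.319% of all genes rose. With PE none of the 10 passed, where 0.384% of all genes rose, although 3 had an unadjusted p under 0.05 (2246 of all genes). With the block 6 rose with ET-1 (Spry2, Spry4, Dusp4, Dusp6, Etv4 and Etv5), where 4.92% of all genes rose, and 3 with PE (Spry4, Dusp4 and Etv5), where 6.17% of all genes rose. The median of the 10 genes was 0.43 with PE and 0.76 with ET-1, beside -0.01 over all genes in both. These comparisons share their vehicle plus JQ1 libraries.

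The test of the difference between the agonist effect with JQ1 and that with DMSO called none of the 10 genes for either agonist, in either fit. Without the block limma called 0 of all genes for PE and 0 for ET-1, with 717 and 616 genes at an unadjusted p under 0.05. With the block it called 0.0725% of all genes for PE and 0.0363% for ET-1. Of the 10, 1 had an unadjusted p under 0.05, Spry2 with PE (-0.47 ± 0.19). For Etv4 the agonist effect with JQ1 minus that with DMSO was -0.94 ± 0.50 log2 with PE and -0.92 ± 0.50 with ET-1 (limma adjusted p = 1.0 in each, and 0.17 and 0.20 with the block), which did not pass.

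Among the Sprouty genes, Spry1 (ENSRNOG00000025371, chromosome 2, 124400679 to 124405331, plus strand, rn6), an inhibitor of receptor tyrosine kinase signalling, had its largest JQ1 differences in the agonist-treated cells. With JQ1 it stood at 12.9 and 9.39 rescaled FPKM in PE libraries, 14.1 and 9.18 in ET-1 libraries and 11.8 and 9.38 in vehicle libraries. Its DMSO values were 30.7 and 30.9 in PE libraries and 25.4 and 28.2 in ET-1 libraries, against 20.2 and 15.1 in vehicle libraries. All 6 JQ1 libraries lay below all 6 DMSO libraries, and with JQ1 the 3 treatments overlapped. The JQ1 difference was -1.45 ± 0.23 in PE (adjusted p = 0.0023), -1.20 ± 0.23 in ET-1 (adjusted p = 0.005) and -0.70 ± 0.23 in vehicle (adjusted p = 0.05, just short of the threshold, and 0.0088 with the block). Under DMSO the agonist differences were 0.80 ± 0.23 with PE (adjusted p = 0.083, and 0.014 with the block) and 0.60 ± 0.23 with ET-1 (0.20, and 0.043 with the block). Under JQ1 they were 0.06 and 0.11, neither called in either fit. Its main transcript took 96.02 to 99.98% of its FPKM.

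Spry2 (ENSRNOG00000010058, chromosome 15, 90172975 to 90175802, minus strand), the most studied Sprouty protein in ERK feedback, had the most precise agonist response of the 10 genes. With JQ1 it stood at 23.6 and 20.5 in PE libraries, 28.8 and 29.8 in ET-1 libraries and 16.8 and 15.5 in vehicle libraries. With DMSO the values were 28.1 and 35.7 in PE libraries and 28.7 and 34.0 in ET-1 libraries, against 16.6 and 16.9 in vehicle libraries. Every agonist library lay above every vehicle library, with JQ1 and with DMSO. The agonist differences under DMSO were 0.90 ± 0.13 with PE (adjusted p = 0.013) and 0.88 ± 0.13 with ET-1 (adjusted p = 0.022), and ET-1 gave 0.84 ± 0.13 under JQ1 (adjusted p = 0.033). PE under JQ1 gave 0.43 ± 0.13, which did not pass (adjusted p = 0.17, and 0.065 with the block). JQ1 lowered Spry2 in PE by 0.52 ± 0.13 (adjusted p = 0.017), where the differences in ET-1 and vehicle were -0.09 and -0.05, with 95% confidence intervals of -0.40 to 0.21 and -0.35 to 0.26. Without the block the ET-1 calls ended when any 1 of the 4 compared libraries was left out (adjusted p from 0.054 to 0.25). The PE call under DMSO ended without either vehicle library or PE replicate 2 (0.061 to 0.11), and the JQ1 call in PE without replicate 2 of either group (0.10 and 0.11). All 4 Spry2 calls ended when the compared libraries were fitted alone (0.094 to 0.43), and the ET-1 call under JQ1 also with no filter (0.062) and with FPKM as deposited (0.078).

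The deposited annotation places Spry2 inside Mycbp2, a ubiquitin ligase gene on the same strand (chromosome 15, 87506959 to 93868301), so their reads could be exchanged in counting. Mycbp2 was higher with JQ1 by 0.69 ± 0.22 in PE (adjusted p = 0.038), 0.99 ± 0.22 in ET-1 (0.0085) and 1.23 ± 0.22 in vehicle (0.0041). The Spry2 differences were -0.52, -0.09 and -0.05 in the same order, and only the one in PE passed. Whether reads were exchanged was not tested. The agonist differences of Mycbp2 under DMSO were 0.03 with PE and -0.19 with ET-1, neither called. Its level ran from 5.201 to 18.28 rescaled FPKM over the 12 libraries.

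Spry4 (ENSRNOG00000013851, chromosome 18, 32594958 to 32609864, plus strand), which acts on Ras and Raf, was the lowest per length of Spry1, Spry2 and Spry4. Its JQ1 values were 1.73 and 0.8004 in PE libraries, 2.10 and 1.19 in ET-1 libraries and 0.819 and 0.465 in vehicle libraries. With DMSO it stood at 3.97 and 3.17 in PE libraries and 3.40 and 3.15 in ET-1 libraries, against 2.47 and 1.71 in vehicle libraries. Within each treatment the JQ1 libraries lay below the DMSO libraries. JQ1 lowered it by 1.25 ± 0.32 in PE (adjusted p = 0.016) and by 1.18 ± 0.32 in vehicle (0.024), while in ET-1 the difference was -0.85 ± 0.32 (0.067, and 0.0024 with the block). The PE call ended without DMSO replicate 1 (adjusted p = 0.087) or JQ1 replicate 2 (0.099) of the PE groups or with the compared libraries alone (0.065), and the vehicle call without DMSO replicate 1 (0.12) or JQ1 replicate 2 (0.13) of the vehicle groups. Its agonist differences were 0.66 with PE and 0.56 with ET-1 under DMSO, and 0.59 and 0.89 under JQ1. These 4 passed only with the block, with adjusted p of 0.021, 0.045, 0.048 and 0.014.

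The Spred genes encode Sprouty-related inhibitors that bring neurofibromin, a Ras inactivator, to the membrane, and they differed between themselves. Spred1 (ENSRNOG00000005209, chromosome 3, 108795235 to 108857556, plus strand) stood at 10.9 and 7.51 in PE libraries, 11.8 and 9.40 in ET-1 libraries and 10.6 and 7.96 in vehicle libraries with JQ1. With DMSO its values were 10.5 and 9.78 with PE, 10.6 and 10.1 with ET-1 and 12.1 and 9.88 with vehicle. All 6 groups overlapped with their neighbours in the order of means, and no comparison of Spred1 passed in either fit. Among the comparisons of 2 groups its largest difference, -0.26 for PE plus JQ1 against vehicle plus DMSO, had a 95% confidence interval of -0.73 to 0.20.

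Spred2 (ENSRNOG00000004888, chromosome 14, 104191517 to 104290456, plus strand) stood at 2.17 and 1.495 in PE libraries, 2.68 and 1.499 in ET-1 libraries and 2.002 and 1.39 in vehicle libraries with JQ1. Its DMSO values were 3.36 and 3.04 with PE, 3.92 and 3.17 with ET-1 and 3.07 and 2.66 with vehicle. In each treatment both JQ1 libraries lay below both DMSO libraries. The JQ1 differences of -0.68, -0.68 and -0.63 (SE 0.25) in PE, ET-1 and vehicle missed the threshold without the block (adjusted p = 0.067, 0.067 and 0.093) and passed with it (0.0033, 0.0033 and 0.0054). No agonist difference of Spred2 passed in either fit.

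Of the phosphatase genes, Dusp4 (ENSRNOG00000011921, chromosome 16, 61078175 to 61091169, minus strand), a nuclear ERK phosphatase, had the largest difference between PE and vehicle, and no JQ1 difference of it passed. With JQ1 it stood at 20.0 and 10.1 in PE libraries and 23.6 and 15.2 in ET-1 libraries, against 6.80 and 3.37 in vehicle libraries. Its DMSO values were 19.8 and 18.8 in PE libraries and 20.3 and 15.1 in ET-1 libraries, against 7.21 and 4.03 in vehicle libraries. Every agonist library lay above every vehicle library in both cases, and in mean level Dusp4 was 3.44-fold higher with PE and 3.14-fold higher with ET-1 under DMSO. The log2 differences were 1.75 ± 0.43 and 1.60 ± 0.43 under DMSO (adjusted p = 0.053 and 0.089), and 1.47 ± 0.43 and 1.87 ± 0.43 under JQ1 (0.15 and 0.082). All 4 passed with the block, with adjusted p of 0.0016, 0.0029, 0.0071 and 0.0033. The JQ1 differences were -0.43 in PE, 0.11 in ET-1 and -0.15 in vehicle, with 95% confidence intervals as wide as -1.41 to 0.56, and none passed in either fit.

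Dusp5 (ENSRNOG00000014061, chromosome 1, 274245184 to 274258595, plus strand), a nuclear phosphatase specific for ERK, did not respond to the agonists past the threshold in either fit. With JQ1 it stood at 12.9 and 7.30 in PE libraries, 11.7 and 7.18 in ET-1 libraries and 10.3 and 10.9 in vehicle libraries. With DMSO the values were 17.4 and 11.5 with PE and 17.8 and 11.5 with ET-1, against 15.04 in both vehicle libraries. Replicates 1 and 2 moved in opposite directions with both agonists, by 0.21 and -0.37 with PE and by 0.24 and -0.37 with ET-1 under DMSO. The JQ1 differences were -0.52, -0.62 and -0.48 (SE 0.33) in PE, ET-1 and vehicle, and the one in ET-1 passed with the block alone (adjusted p = 0.038).

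Dusp6 (ENSRNOG00000023896, chromosome 7, 41475163 to 41479392, plus strand), the cytoplasmic ERK phosphatase, differed widely between replicates. Its JQ1 values were 9.79 and 3.79 in PE libraries, 13.7 and 6.48 in ET-1 libraries and 6.04 and 3.26 in vehicle libraries. With DMSO it stood at 14.7 and 10.3 in PE libraries and 15.8 and 8.20 in ET-1 libraries, against 8.56 and 4.29 in vehicle libraries. Within each replicate number every agonist library lay above its vehicle library and every JQ1 library below its DMSO library. Without the block no comparison passed. With it Dusp6 rose with PE (0.96 ± 0.15, adjusted p = 0.0052) and ET-1 (0.86 ± 0.15, 0.010) under DMSO and with ET-1 under JQ1 (1.01 ± 0.15, 0.0089), and fell with JQ1 in PE (-0.94 ± 0.15, 0.0013). The SE of the same differences without the block was 0.57.

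Etv4 (ENSRNOG00000020792, chromosome 10, 89685058 to 89700283, minus strand), a Pea3 factor, had the largest JQ1 response of the 10 genes. Its JQ1 values were 0.997 and 0.621 in PE libraries, 1.244 and 0.635 in ET-1 libraries and 0.696 and 0.143 in vehicle libraries. With DMSO it stood at 9.77 and 8.53 in PE libraries and 11.4 and 8.40 in ET-1 libraries, against 3.63 and 2.29 in vehicle libraries. The highest JQ1 library lay below the lowest DMSO library, which was a vehicle library. In mean level Etv4 was 11.3-fold lower with JQ1 in PE, 10.5-fold lower in ET-1 and 7.05-fold lower in vehicle. The vehicle value rests on few reads, and leaving out either vehicle plus JQ1 library moved it to 4.25-fold or 20.6-fold lower. The log2 differences were -2.89 ± 0.35 (adjusted p = 0.00067), -2.87 ± 0.35 (0.00064) and -1.95 ± 0.35 (0.0046), and they passed under every alternative tried, with adjusted p up to 0.018, 0.021 and 0.041.

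Under DMSO Etv4 was 3.09-fold higher with PE and 3.34-fold higher with ET-1 in mean level. The PE difference of 1.51 ± 0.35 passed (adjusted p = 0.047) and the ET-1 difference of 1.60 ± 0.35 did not (0.054), while both passed with the block (0.0012 and 0.0014). The PE call without the block ended when any 1 of its 4 libraries was left out (adjusted p from 0.09 to 0.24), with a pseudocount of 0.1 (0.13), with no filter (0.071), with FPKM as deposited (0.096) and with the compared libraries alone (0.12). Under JQ1 the differences were 0.56 with PE and 0.68 with ET-1, and ET-1 alone passed, with the block (adjusted p = 0.031). PE plus JQ1 and ET-1 plus JQ1 left Etv4 below vehicle alone, by 1.39 ± 0.35 (adjusted p = 0.015) and 1.27 ± 0.35 (0.021). Its 2 annotated transcripts were assigned differently between replicates: ENSRNOT00000084311 took 67.81 and 3.689% of the FPKM of Etv4 in PE replicates 1 and 2, 66.48 and 3.272% in ET-1 and 23.78 and 3.202% in vehicle, under DMSO. With JQ1 its share was at most 5.132%. The level summed over both transcripts did not show this split.

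Etv5 (ENSRNOG00000001785, chromosome 11, 82194657 to 82252139, plus strand), the other Pea3 factor among the 10, was not lowered by JQ1 in any treatment. Its JQ1 values were 7.53 and 4.69 in PE libraries and 7.22 and 6.43 in ET-1 libraries, against 4.21 and 2.73 in vehicle libraries. With DMSO it stood at 5.62 and 5.11 in PE libraries and 4.97 and 4.54 in ET-1 libraries, against 4.03 and 2.28 in vehicle libraries. The agonist libraries lay above the vehicle libraries in all 4 comparisons. The differences of 0.72 with PE and 0.57 with ET-1 under DMSO did not pass without the block (adjusted p = 0.18 and 0.31), and with it PE passed (0.019) and ET-1 did not (0.052). Under JQ1 the differences were 0.73 and 0.91, which passed only with the block (0.032 and 0.016). The JQ1 difference was 0.14 in PE, 0.48 in ET-1 and 0.14 in vehicle (SE 0.29), of which the one in ET-1 passed with the block (0.039).

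Setting both agents against vehicle plus DMSO showed where each gene ended up. With PE plus JQ1 against vehicle plus DMSO, Spry2 (0.38 ± 0.13), Dusp4 (1.32 ± 0.43) and Etv5 (0.86 ± 0.29) rose, with adjusted p of 0.048, 0.038 and 0.041, and Etv4 fell. These 3 higher and 1 lower stand beside 20.2% and 21.2% of all genes. With ET-1 plus JQ1 the same 3 genes rose (0.79 ± 0.13, 1.72 ± 0.43 and 1.04 ± 0.29, adjusted p = 0.0023, 0.013 and 0.02) and Etv4 fell, beside 21.2% and 22% of all genes. With the block Spry1, Spred2 and Dusp5 also fell in both, Spry4 fell with PE plus JQ1 and Dusp6 rose with ET-1 plus JQ1. That made 3 higher and 5 lower with PE plus JQ1, beside 29.6% and 31.2% of all genes, and 4 higher and 4 lower with ET-1 plus JQ1, beside 30.8% and 32%. With PE plus JQ1 the 3 rises also ended when FPKM was used as deposited (adjusted p from 0.11 to 0.29), with no filter (0.063 to 0.071) and when the compared libraries were fitted alone (0.074 to 0.12). With ET-1 plus JQ1 the Etv5 call ended with FPKM as deposited (0.09) and with the compared libraries alone (0.058), where the Etv4 call ended too (0.057). Without the block the Dusp4 and Etv5 calls ended when replicate 1 of the agonist plus JQ1 group or replicate 2 of vehicle was left out, with adjusted p from 0.067 to 0.23. The Etv4 calls ended without vehicle replicate 1 or replicate 2 of the agonist plus JQ1 group (0.087 to 0.13). With PE plus JQ1 the Spry2 call ended without any 1 of the 4 libraries (0.064 to 0.21), and with ET-1 plus JQ1 the Etv5 call also ended without ET-1 plus JQ1 replicate 2 (0.061).

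Because family members were measured in the same library, the ratio of one to another was compared between JQ1 and DMSO. The log2 ratio was averaged over the 6 JQ1 and the 6 DMSO libraries and tested by exact two-sided permutation of the JQ1 label within each treatment (216 arrangements, smallest possible p = 0.0093), with adjustment over the 8 pairs compared. The pairs and the test were chosen after the values were seen, and the adjustment over 8 pairs does not cover that choice. The p-values of these ratios therefore describe the pairs and add no independent support. The Etv4/Etv5 ratio ran from -2.61 to -1.98 with JQ1 and from -0.134 to 1.12 with DMSO, a difference of -2.82 (exact permutation p = 0.0093, adjusted p = 0.019). Spry1/Spry2 ran from -1.65 to -0.498 with JQ1 and from -0.267 to 0.276 with DMSO, a difference of -0.897. Spry4/Spry2 differed by -0.875 and Spred2/Spred1 by -0.538, each with the same exact p and adjusted p and with no overlap between the 6 JQ1 and the 6 DMSO libraries. In these 4 pairs the first gene was lower relative to the second in every JQ1 library than in any DMSO library.

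Dusp6/Dusp4 was lower by 0.382 with JQ1 in the mean, with overlapping libraries (exact permutation p = 0.019, adjusted p = 0.03). Dusp5/Dusp4 differed by -0.387 (adjusted p = 0.16 by the same exact test). Spry1/Spry4 and Dusp5/Dusp6 differed by -0.0221 and -0.00421, each with an adjusted p of 0.99 by that exact test. The Spry1/Spry4 ratio ranged from 2.49 to 3.36 over the JQ1 libraries and from 2.73 to 3.1 over the DMSO libraries. When libraries were paired by treatment and replicate number, the 5 pairs that passed kept the same differences and all stood at the smallest p that exact permutation of 6 matched pairs allows, 0.031. With 5 pairs at that floor the adjusted p was 0.05, so none of them passed the paired test. The adjusted value at the floor depends on how many pairs reach it. Dusp5/Dusp4, Spry1/Spry4 and Dusp5/Dusp6 did not reach it (paired exact p = 0.094, 0.91 and 0.97). The Spry4/Spry2 call also ended without ET-1 plus DMSO replicate 1 or PE plus JQ1 replicate 2 (adjusted exact p = 0.056 in each). The Dusp6/Dusp4 call ended without any 1 of 5 libraries: replicate 1 of ET-1 plus DMSO, PE plus DMSO or vehicle plus JQ1, or replicate 2 of ET-1 plus JQ1 or PE plus JQ1 (0.059 to 0.12).

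**Figure D3:**
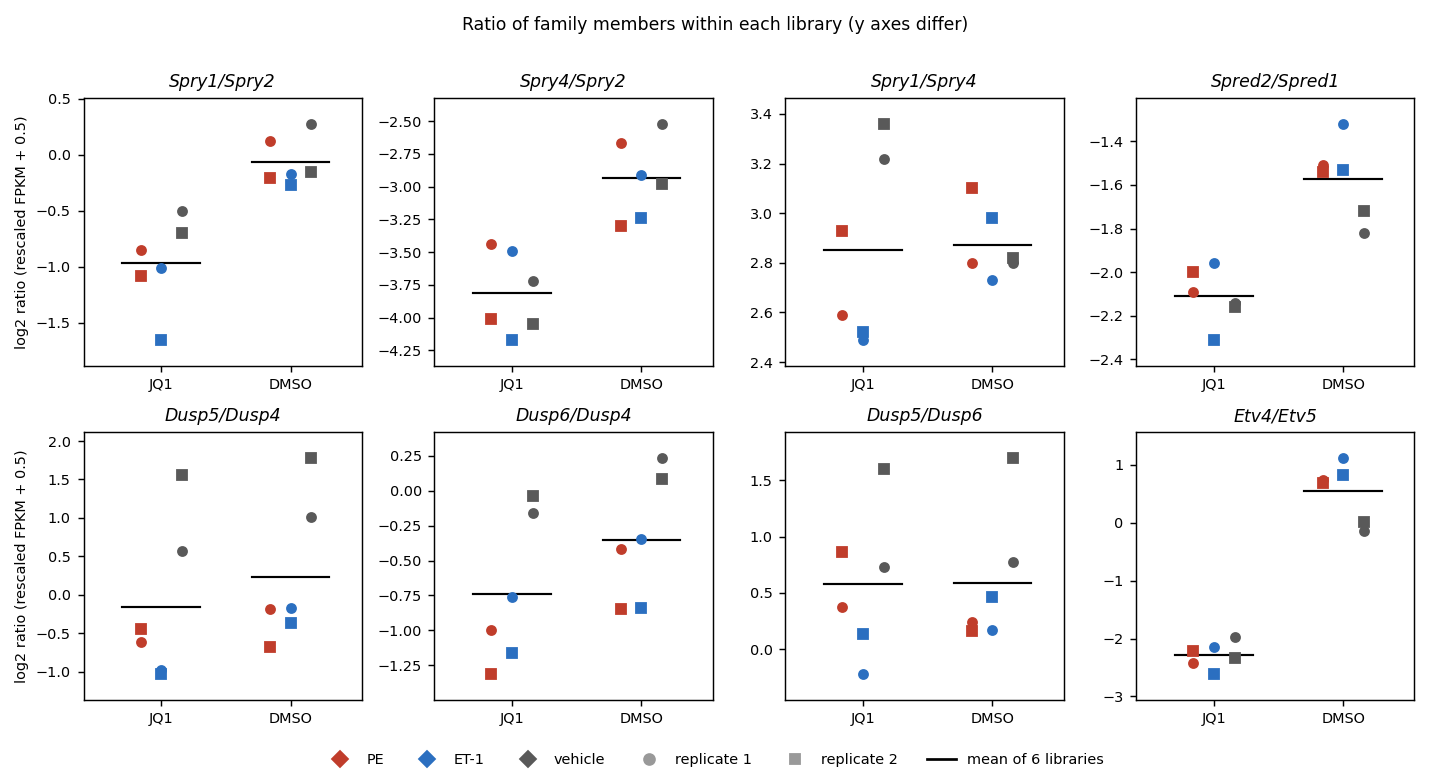
Log2 ratio of 2 family members within each library (y axis, scale set per pair), for the 6 JQ1 and the 6 DMSO libraries (x axis), coloured by treatment, with circles for replicate 1, squares for replicate 2 and lines for the mean of 6. The JQ1 and DMSO libraries do not overlap for Etv4/Etv5, Spry1/Spry2, Spry4/Spry2 and Spred2/Spred1.

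How the genes varied together was described within the 6 JQ1 and within the 6 DMSO libraries, since these stand apart for several genes. Spry4, Dusp4, Dusp6, Etv4 and Etv5, grouped after their values were seen, had a Pearson's r of 0.854 to 0.989 over their 10 pairs within JQ1 and of 0.88 to 0.99 within DMSO. Etv4 and Etv5 correlated at 0.901 within JQ1 and at 0.907 within DMSO, though they differed in their response to JQ1. Spry1 and Spry2 correlated at 0.282 within JQ1 and at 0.895 within DMSO. Spred1 correlated with Spry1 at 0.891 within JQ1 and at -0.195 within DMSO. Dusp5 had no r above 0.767 within JQ1 or above 0.469 within DMSO. Each r rests on 6 libraries that share treatment and replicate number, and no p is given.

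**Figure D4:**
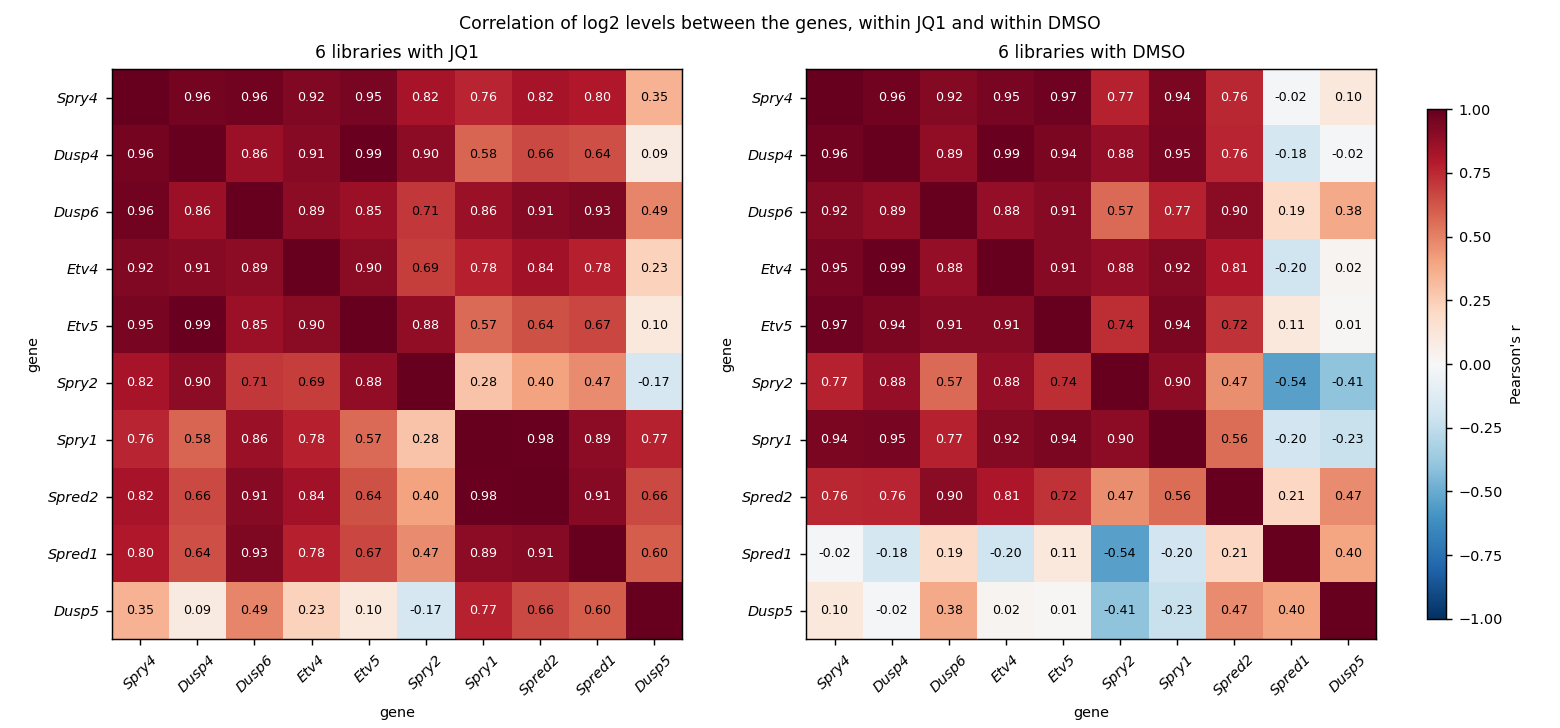
Pearson's r of log2(rescaled FPKM + 0.5) between each pair of genes (both axes) over the 6 JQ1 libraries on the left and the 6 DMSO libraries on the right, from -1 (blue) to 1 (red). The block of Spry4, Dusp4, Dusp6, Etv4 and Etv5 at the upper left stays at 0.854 or above in both, whereas Spry1 with Spry2 is at 0.282 on the left and 0.895 on the right.

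**Figure D5:**
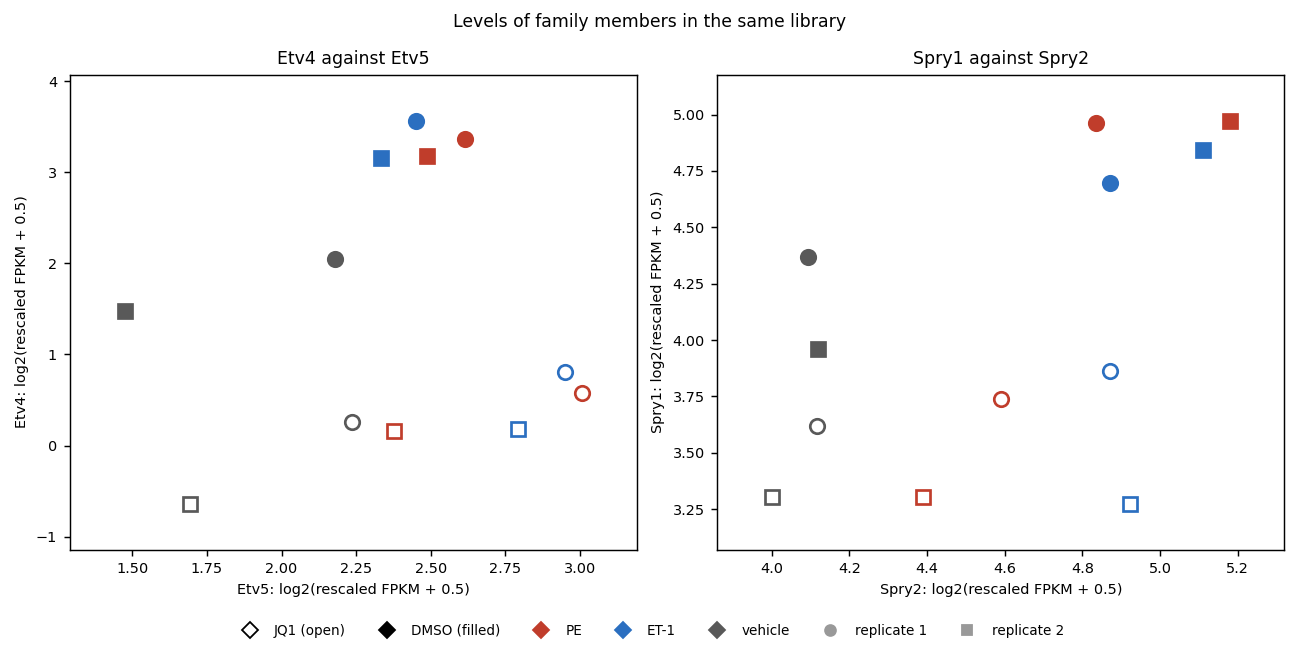
Level of Etv4 against Etv5 (left) and of Spry1 against Spry2 (right) in each of the 12 libraries, both axes in log2(rescaled FPKM + 0.5), with open symbols for JQ1 and filled for DMSO. In the Etv4 plot the JQ1 libraries form a row below the DMSO libraries at like Etv5 levels, and within each replicate number and row the agonist libraries lie above the vehicle library.

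Among all other genes, those most like the 10 over the 12 libraries were found by Pearson's r of log2(rescaled FPKM + 0.5), which includes the response to JQ1. For Etv4 it was Inhba (r = 0.993), the activin A subunit. For Spry1 it was Slc25a13 (0.988), a mitochondrial carrier, level with the unnamed AABR07058464.1, and RGD1309808 was the third for both Spry1 (0.98) and Etv4 (0.991). Spry4 was most like Gramd2a (0.982), and Spred2 most like Cmtm7 (0.974), with Ccnd1, cyclin D1, the third (0.97). Dusp4 was most like Anxa2 (0.988) and Spry2 most like Anxa5 and Il1rap (0.956 each). Etv5 was most like Bag5l1 (0.956), Dusp5 most like Lztr1 (0.957) and Spred1 most like AABR07035796.1 (0.96).

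Other genes that follow ERK activity were read from a list of 16, of which 14 were tested. The counts of this and the following lists stand beside the shares of all genes: 2.89% rose and 3.18% fell with PE, 1.31% and 1.57% with ET-1, and with the block 11.8% and 12.2% with PE and 8.89% and 9.5% with ET-1. With JQ1 17.5% rose and 19% fell in PE, 17.9% and 19.6% in ET-1 and 15.3% and 16.7% in vehicle, and with the block 26.7% and 29.7%, 27.1% and 29.8%, and 24.9% and 27.9%. With PE, Fos (1.3 ± 0.24, adjusted p = 0.026), Ier3 (1.14 ± 0.22, 0.028), Epha2 (1.15 ± 0.19, 0.018) and Maff (1.15 ± 0.21, 0.025) rose and 0 fell, and the list's median was 0.86. With ET-1, Epha2 (1.07 ± 0.19, 0.035) and Maff (1.18 ± 0.21, 0.034) rose and 0 fell, with a median of 0.59. With the block 8 rose and 1, Epha4, fell with each agonist. Under JQ1 only Epha2 rose without the block, with ET-1, where 0.319% of all genes rose with ET-1 and 0.384% with PE. With the block 3 of the list rose with PE under JQ1 and 6 with ET-1, where 6.17% and 4.92% of all genes rose. Hbegf and Areg, ligands of the EGF receptor, were among the 8, with 1.37 and 1.75 with PE (adjusted p = 0.0012 and 0.00056 with the block) and 1.5 and 1.69 with ET-1 (0.0013 and 0.0011).

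With JQ1 most counts of this list were near the shares of all genes. In PE 2 of the 14 rose, Egr1 (0.80 ± 0.24, adjusted p = 0.033) and Ier2 (0.54 ± 0.17, 0.036), both immediate early genes, and 4 fell, Epha2 (-1.18 ± 0.19, 0.0025), Maff (-1.48 ± 0.21, 0.0014), Ccnd1 (-2.07 ± 0.68, 0.046) and Lif (-1.03 ± 0.32, 0.036). In ET-1 Egr1 and Ier2 rose and Maff and Lif fell. In vehicle Egr1, Fos, Junb and Ier2 rose and Maff fell. With the block 3 rose and 7 fell in PE, 4 and 6 in ET-1 and 5 and 5 in vehicle. The medians were -0.37, -0.27 and 0.15 in PE, ET-1 and vehicle.

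Etv1, the third Pea3 factor, was read from a list of 12 other ETS genes, all tested. It averaged 1.52 rescaled FPKM with JQ1 and 7.77 with DMSO in PE, 1.43 and 7.83 in ET-1, and 2.23 and 13.0 in vehicle. Its JQ1 differences were -2.04 ± 0.19 (adjusted p = 0.00024), -2.09 ± 0.19 (0.00021) and -2.31 ± 0.19 (0.00023). Its agonist differences under DMSO were -0.72 with PE and with ET-1, opposite in sign to those of Etv4 and Etv5, and passed only with the block (0.027 and 0.032). Etv6, a repressor of the ETS family, also fell with JQ1 in all 3 treatments (-0.53, -0.36 and -0.36, adjusted p = 0.0071, 0.035 and 0.037), and Ets2 rose in all 3 (0.48, 0.42 and 0.40, adjusted p = 0.0042, 0.0078 and 0.011). With Elf1 higher in ET-1, 1 or 2 of the 12 rose and 2 fell with JQ1 in each treatment, which is near the shares of all genes. With the block these counts were 2 and 3 in PE, 4 and 3 in ET-1 and 3 and 3 in vehicle. No ETS gene of the list passed with the agonists without the block, and with it 2 rose and 3 fell with PE and 0 rose and 4 fell with ET-1.

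The core of the ERK cascade, 20 genes from the adaptors to the kinases, all tested, had 1 call with the agonists without the block. Grb2, an adaptor, was lower with PE (-0.49 ± 0.11, adjusted p = 0.045), and 0 passed with ET-1. With the block 2 rose and 2 fell with PE and 1 rose and 2 fell with ET-1, and with JQ1 7 rose and 4 fell in PE, 6 and 4 in ET-1 and 4 and 3 in vehicle. With JQ1, the phosphatase gene Ptpn11 (0.37, 0.43 and 0.49 in PE, ET-1 and vehicle) and the MEK genes Map2k1 (0.41, 0.42 and 0.46) and Map2k2 (0.71, 0.56 and 0.61) rose in all 3 treatments. Their adjusted p ran from 0.0032 to 0.018. Mapk3, the ERK1 gene, was lower in vehicle (-0.88 ± 0.25, adjusted p = 0.03), with -0.56 in PE and -0.62 in ET-1, which passed only with the block (0.0029 and 0.0017). Sos1 rose in PE and ET-1 and Shc1 fell in PE. Receptor genes upstream of ERK (9 of 12 tested) had 0 calls in any of these 5 comparisons without the block. Their counts with the block were 1 higher and 2 lower with PE, 1 higher and 1 lower with ET-1, and 1 to 2 higher and 2 to 3 lower with JQ1, near the shares of all genes.

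The remaining Sprouty, Spred and phosphatase genes (6 of 9 tested) had 0 calls with the agonists without the block, with a median of 0.53 for each agonist, and 4 rose with PE and 2 with ET-1 with it. With JQ1 and the block 1 rose and 3 fell in PE, 2 and 2 in ET-1 and 2 and 1 in vehicle. Dusp7, a cytoplasmic ERK phosphatase, fell with JQ1 in PE (-0.35 ± 0.10, adjusted p = 0.028) and ET-1 (-0.44 ± 0.10, 0.01). Other negative regulators (8 of 9 tested) had 0 calls with the agonists without the block and only rises with JQ1, namely Pebp1 in PE and vehicle, Errfi1 in ET-1 and vehicle, and Lrig1 in vehicle. With the block these 3 genes rose in all 3 treatments, and 2 genes fell with PE and 1 with ET-1. Errfi1, an inhibitor of the EGF receptor that ERK signalling itself raises, was 0.84 ± 0.29 higher in PE (adjusted p = 0.051, and 0.0021 with the block), 1.05 ± 0.29 in ET-1 (0.021) and 0.93 ± 0.29 in vehicle (0.04).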

How the data were processed

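The data were 12 RNA libraries from cultured cardiomyocytes. DESeq2 1.24.0, StringTie 1.3.4d, STAR 2.7.1a and Trim Galore 0.6.0 are named, with build rn6, per the submitters' processing notes. The deposited tables hold, per the file headers, each transcript's mean coverage per base (a signal) and its FPKM, for 41078 transcripts. The labels do not give the strand setting of the quantification. The authors' FPKM values were summed by gene and divided by factors of 0.873 to 1.127, medians of ratios over the 15551 genes with a value above 0 in each library. Groups came from the labels. The test was limma 3.58.1 (R 4.3.3), with trended and robust variance, on log2(rescaled FPKM + 0.5), fitting 6 group means to 12 libraries. P-values were adjusted over 13793 genes, with a threshold of 0.05. Log2 differences on this scale understate the change of low genes. The test was checked on simulated data with independent errors, which does not cover libraries that deviate together.

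All groups carry replicate numbers 1 and 2. Deviations of same-numbered libraries from their group means correlated at 0.16 to 0.67 over all 15 pairs of groups, so the data, not the labels, led to treating the numbers as pairs. The replicate block, a pseudocount of 0.1, no filter, FPKM as deposited, coverage times length, the compared libraries alone and leaving out each library were tried. The 10 genes and all lists were chosen with earlier results of these data known. All 10 are named, with genes of the other lists that passed with 1 agent, and the 3 genes most alike to each of the 10 were found. Ratios and motifs were examined with Python 3.11.15, chosen after seeing the values. Some genes that the rule would name are not reported here.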

Additional observations from a re-analysis of the deposited data

How the results depend on the processing

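No direction was reversed among called values, under any alternative. With the replicate block, where same-numbered libraries are paired, the count of the 10 genes called was 7 for PE and 6 for ET-1 against vehicle, 4 for JQ1 in vehicle, 6 for JQ1 in ET-1, 3 for PE and 6 for ET-1 against vehicle under JQ1, and 8 for PE plus JQ1 and 8 for ET-1 plus JQ1 against vehicle alone. Of 120 differences 34 passed only with the block, 0 only without it, and 86 kept their side. With the compared libraries alone the counts were 0 for PE and 0 for ET-1 against vehicle, 2 for JQ1 in PE, 0 for ET-1 under JQ1, 1 for PE plus JQ1 and 2 for ET-1 plus JQ1. PE against vehicle gave 1 with a pseudocount of 0.1, with no filter and as deposited. ET-1 under JQ1 gave 0, and PE plus JQ1 gave 1, with no filter and as deposited. The cause was not tested, but fewer libraries leave fewer degrees of freedom. The deposited scale moved the median of all genes to -0.13 for PE and -0.11 for ET-1 against vehicle, and to -0.16 and -0.17 with JQ1 added.

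Leaving out 1 library at a time without the block gave 0 to 1 genes for PE and 0 to 0 for ET-1 against vehicle, 2 to 4 for JQ1 in PE, 2 to 4 in ET-1 and 1 to 2 in vehicle, 0 to 0 for both agonists under JQ1, 1 to 2 for PE plus JQ1 and 2 to 4 for ET-1 plus JQ1. With the block the ranges were 4 to 6, 3 to 5, 5 to 7, 4 to 5, 4 to 4, 0 to 2 for PE and 1 to 5 for ET-1 under JQ1, 4 to 8 and 5 to 7. A group left with 1 library is assumed to vary like the others. Without the block the Etv4 calls with JQ1 in all 3 treatments and the Spry1 calls in PE and ET-1 held without any 1 library. Precision is limited by 2 libraries a group and, for Etv4 with JQ1, by its low coverage.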
